A study of Mus musculus with 8 samples.

Results

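The 10 genes described here belong to the BCL2 family, the set of proteins that decides at the mitochondrion whether a cell lives or dies. They are *Bcl2*, *Bcl2l1*, *Bcl2l2* and *Mcl1*, *Bak1*, and *Bcl2l11*, *Bad*, *Bid*, *Bik* and *Bmf*. They were found by their gene symbol on the array, each was read by 1 transcript cluster (the set of probes for a gene), and all 10 were measured, out of 19505 genes with a symbol. Spleens of lymphoma-bearing mice (*Trp53*KI/KI;*Vav1*DC/DC, 4 samples) were compared with spleens of control mice (*Trp53*KI/KI, 4 samples), all C57BL/6, to ask how the transcriptome of the lymphoma differs. Both groups carry the *Trp53* knock-in, in which p53 is fused to an estrogen receptor and is mostly inactive without 4-hydroxytamoxifen, so that neither group has normal p53. The lymphoma group also carries in both copies of *Vav1* an allele edited in its own locus that ends within the C-terminal SH3 domain, and it is active wherever *Vav1* is expressed. The groups therefore differ in genotype and disease at once, and these cannot be told apart. Ages were not given for these samples, and nothing states that each array was a separate animal, so that the p-values cover only how these samples spread, which may be technical.

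In healthy cells BCL2, BCL-XL (encoded by *Bcl2l1*), BCL-W (*Bcl2l2*) and MCL1 hold back the pore-forming proteins BAK (*Bak1*) and BAX. BH3-only proteins such as BIM (*Bcl2l11*), BAD, BID, BIK and BMF sense stress and either block the survival proteins or switch on the pore formers, after which cytochrome c leaves the mitochondrion and caspases are activated. In lymphoid tissue BCL2 keeps resting lymphocytes alive, MCL1 is needed by most haematopoietic cells, and BIM removes autoreactive and spent lymphocytes.

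All values are log2 signals on Affymetrix Clariom S HT arrays, 1 array per sample, and a difference of 1 is a doubling. The median over all 22206 transcript clusters was between 7.19 and 7.21 on the control arrays and between 7.22 and 7.24 on the lymphoma arrays, and all 10 genes lay above the median of the background probe sets (4.76 to 4.94) on every array. The *E. coli* hybridisation controls, which are added to each array's hybridisation mix and are read by 14 probe sets, averaged 10.99 to 11.07 on control and 10.41 to 10.72 on lymphoma arrays, a difference of -0.46. Setting the arrays equal on these controls, an alternative chosen after their values were seen, adds that amount to every difference and moves the median change of all clusters from -0.056 to 0.40. The part of this offset in the results was not tested. Sex is not in the labels. The methods name female animals for the in vivo studies. Elsewhere the authors name cohorts of both sexes, for mice with the *Vav1* edit alone, which are not among these samples. On the Y chromosome, *Kdm5d* read 8.91 to 9.15 on control and 7.17 to 8.01 on lymphoma arrays and *Eif2s3y* 10.64 to 10.85 and 8.91 to 9.84, above the background median on every array, which goes against all animals being female. *Kdm5d*, *Uty* and *Eif2s3y* had log2 fold changes of -1.38, -1.25 and -1.28, whose part in the results was not tested. *Vav1*, whose probes need not touch the edited exon, read 10.01 to 10.32 in control and 10.39 to 10.58 in lymphoma spleens.

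Of the 10 genes, 3 were higher in lymphoma spleens (*Bak1*, *Bcl2l11* and *Bcl2l1*), 2 were lower (*Bcl2* and *Bmf*) and 5 did not pass the test, with equal hybridisation controls turning the changes of *Bcl2* and *Bmf* to 0.044 and 0.024, neither of which passed. Calls were made with limma, a linear model with moderated variances, where p after Benjamini-Hochberg adjustment over all clusters did not exceed 0.05. By the same rule 35.4% of all clusters were called, 18.2% as higher and 17.2% as lower (4039 and 3825 clusters, or 16127 and 389 with equal hybridisation controls). The median log2 fold change of the 10 genes was 0.056. The groups did not overlap for 6 of the 10 genes, against 34.7% of all clusters. With so many genes of the spleen called, these counts do not set the family apart.

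**Figure D1:**
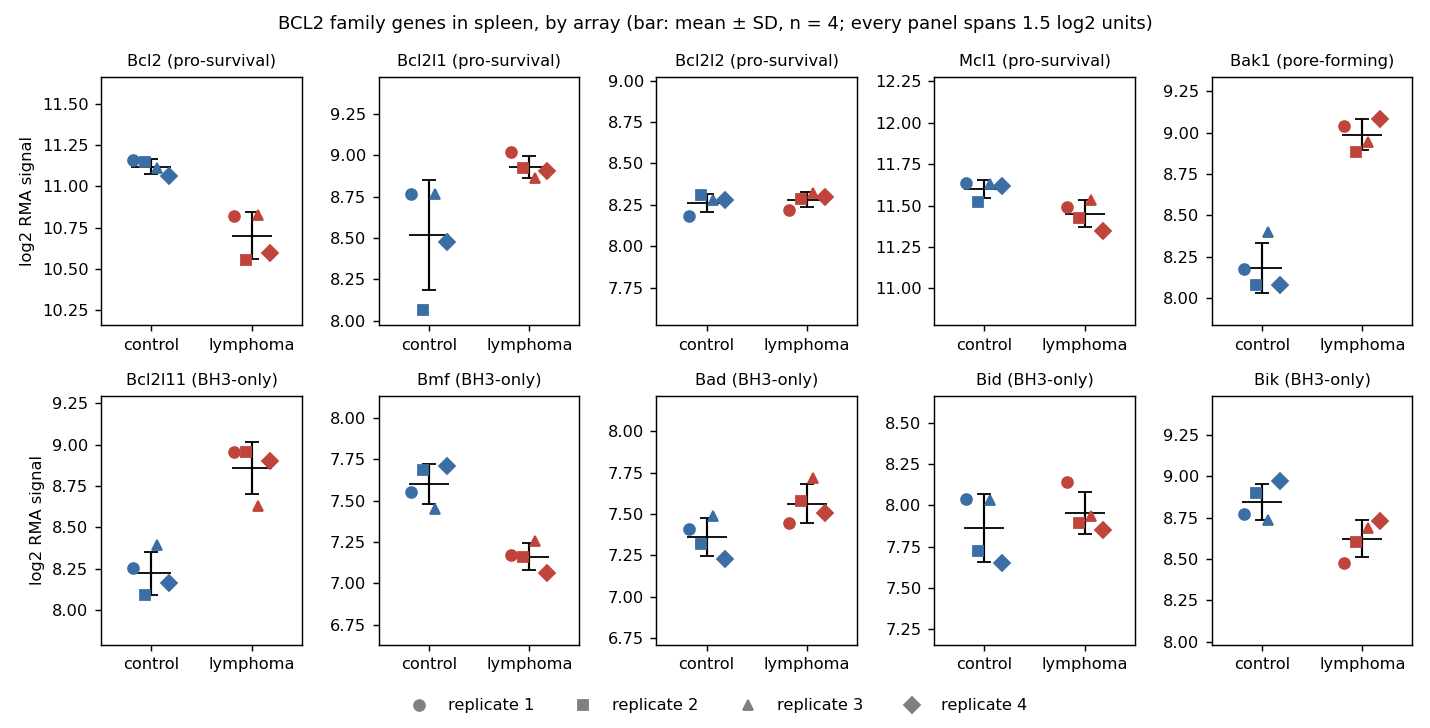
Log2 signal (y axis) of each of the 10 genes in the 4 control and 4 lymphoma spleens (x axis); points are single arrays, with a marker for each replicate number, and bars are the mean and SD (n = 4). *Bak1* and *Bcl2l11* lie higher on all 4 lymphoma arrays and *Bcl2* and *Bmf* lower (0.044 and 0.024 with equal hybridisation controls), while *Bcl2l1* has 1 low control array at 8.06.

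*Bak1*, which encodes the pore former BAK, changed most. It read 8.18, 8.08, 8.40 and 8.08 on the control arrays and 9.04, 8.88, 8.95 and 9.08 on the lymphoma arrays. The lowest lymphoma array was thus above the highest control array. The mean went from 8.18 ± 0.15 (SD, n = 4) to 8.99 ± 0.09 (SD, n = 4), 1.75-fold higher (log2 fold change 0.81, standard error 0.09, limma adjusted p = 1.53e-05). Over all alternatives its change was between 0.77 and 1.27 and its call was kept.

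*Bcl2l11*, which encodes BIM, a BH3-only protein that binds all the survival proteins, was the other death gene that rose. It was at 8.25, 8.09, 8.39 and 8.16 in control and 8.96, 8.95, 8.63 and 8.90 in lymphoma spleens. Again the groups did not overlap, with lymphoma replicate 3 nearest to the controls. The rise was 1.55-fold (log2 fold change 0.64, standard error 0.10, limma adjusted p = 0.000190), and it stayed between 0.59 and 1.10 and past the threshold under all alternatives.

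*Bmf*, whose BH3-only product is released from the cell's motor complexes on stress, had the lowest log2 fold change of the 10. Its direction depends on whether the hybridisation controls are set equal. Control arrays read 7.55, 7.68, 7.45 and 7.71 and lymphoma arrays 7.17, 7.16, 7.25 and 7.06. Every lymphoma array lay below every control array. The log2 fold change was -0.44 (standard error 0.08, limma adjusted p = 0.00114), or 1.35-fold lower, and 0.024 with equal hybridisation controls (limma adjusted p = 0.863). After cyclic loess and with equal array medians it was -0.41 and -0.46 (limma adjusted p = 0.00169 and 0.000666).

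The other BH3-only genes, *Bad*, *Bid* and *Bik*, did not pass the test. *Bad*, whose product is held in check by survival signalling through AKT, ranged from 7.23 to 7.49 in control and from 7.45 to 7.72 in lymphoma spleens, with a log2 fold change of 0.20 (95% interval 0.01 to 0.39, limma adjusted p = 0.0906). *Bik*, named for its interaction with BCL2, ranged from 8.74 to 8.97 in control and from 8.48 to 8.73 in lymphoma spleens. These ranges just miss each other, and its log2 fold change was -0.22 (95% interval -0.41 to -0.03, limma adjusted p = 0.0648). *Bik* passed the threshold as lower in 6 of 20 alternatives, among them equal array medians (limma adjusted p = 0.0346), and was at 0.24 with equal hybridisation controls. *Bid*, which links death receptors to the mitochondrion once caspase 8 has cut it, was at 8.04, 7.72, 8.03 and 7.65 in control and 8.14, 7.90, 7.94 and 7.85 in lymphoma spleens. Its groups overlapped, and its log2 fold change was 0.09 (95% interval -0.14 to 0.32, limma adjusted p = 0.529). The 5 BH3-only genes held 1 gene called higher, 1 called lower and 3 not called, beside 18.2% of all clusters called higher and 17.2% lower. With equal hybridisation controls 3 were higher and 0 lower, beside 16127 and 389 of 22206 clusters. The 3 were *Bcl2l11*, *Bad* and *Bid*, the latter pair at 0.66 and 0.55 (limma adjusted p = 1.23e-05 and 0.000192). *Bad* was also called higher without the dimmest 50% of clusters (limma adjusted p = 0.0447).

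*Bcl2*, the founding survival gene of the family, was lower on all 4 lymphoma arrays. This direction, too, depends on whether the hybridisation controls are set equal. It was at 11.16, 11.14, 11.11 and 11.06 in control spleens and at 10.82, 10.56, 10.83 and 10.60 in lymphoma spleens. The 4 control arrays lay close together (SD 0.044), whereas the lymphoma arrays spread more (SD 0.14), with replicates 2 and 4 lowest. The log2 fold change was -0.42 (standard error 0.09, limma adjusted p = 0.00182), or 1.33-fold lower, and 0.044 with equal hybridisation controls (limma adjusted p = 0.747). After cyclic loess and with equal array medians it was -0.46 and -0.44 (limma adjusted p = 0.000586 and 0.00123). Without any 1 array the call was kept, with adjusted p of at most 0.00798.

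Beside the lower *Bcl2* and *Bmf*, markers of B cells and NK cells were mostly lower, while those of T cells were more often higher. Of 11 B cell genes all were lower, and their mean level was 11.33 to 11.39 on control and 10.26 to 10.46 on lymphoma arrays. Of 12 T cell genes 7 were higher and 1 was lower (9.06 to 9.15 and 9.30 to 9.54), and of 6 NK cell genes 4 were lower and 1 was higher (7.24 to 7.51 and 6.72 to 7.21). Each of these markers exceeded the background median on at least 1 of the 8 arrays. The marker counts here and below are for the arrays as deposited and were not repeated with equal hybridisation controls. In RNA of whole spleen, fewer cells of a type and less RNA per cell cannot be told apart, and the part of these markers in the values of *Bcl2* and *Bmf* was not tested.

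Beside *Bak1* and *Bcl2l11*, markers of myeloid and dividing cells were higher. Of 12 neutrophil genes 11 were higher (mean level 6.74 to 6.997 on control and 9.37 to 9.54 on lymphoma arrays), of 11 macrophage and monocyte genes 7 were higher and 2 lower (8.86 to 9.14 and 9.77 to 9.92), and all 11 proliferation genes were higher (8.22 to 8.68 and 9.94 to 10.15). Of 8 plasma cell genes 5 were higher and 1 lower, of 9 endothelial and stromal genes 3 and 1, and of 6 megakaryocyte genes 1 and 0. The part of these cells in the values of *Bak1* and *Bcl2l11* was not tested.

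*Bcl2l1*, which encodes BCL-XL, was called higher, but the call turned on single arrays. BCL-XL is the survival protein on which late red cell precursors and platelets depend. Control arrays read 8.76, 8.06, 8.77 and 8.47 and lymphoma arrays 9.02, 8.92, 8.86 and 8.90. All lymphoma arrays were above all control arrays, yet the control arrays spread far more (SD 0.33 against 0.067), with control replicate 2 lowest. The log2 fold change was 0.41 (standard error 0.13, limma adjusted p = 0.0303), or 1.33-fold higher. Without control replicate 2 it was 0.26 (limma adjusted p = 0.0595), and the call was also lost without control replicate 4 or lymphoma replicate 1, 2 or 4 (limma adjusted p = 0.0532 to 0.0770) and with the unmoderated test (adjusted p = 0.124).

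The control arrays with low *Bcl2l1* were those with low erythroid genes, and also with lower means of several other marker lists. The mean of 7 erythroid markers was 8.83, 7.97, 8.93 and 8.41 in control replicates 1 to 4, the same order as *Bcl2l1*, and 9.10, 9.001, 9.17 and 9.02 in the lymphoma replicates. The lymphoma arrays did not keep this order: replicate 3 had the highest erythroid mean and the lowest *Bcl2l1* (8.86). *Rhag*, which encodes a membrane protein of red cells, was at 8.59, 6.11, 8.65 and 7.67 in control spleens and at 8.99 to 9.50 in lymphoma spleens. *Bid*, too, was lower in control replicates 2 and 4 (7.72 and 7.65) than in 1 and 3 (8.04 and 8.03). Of the 7 erythroid markers 4 were higher in lymphoma spleens and 0 lower, and the median was a log2 fold change of 0.45, and each exceeded the background median on at least 1 array. Other genes shared the pattern: *Bcl2l11* had the same order over the control arrays, *Bak1* and *Bad* were also lower in control replicates 2 and 4 than in 1 and 3, and the mean of the proliferation genes was 8.68, 8.22, 8.60 and 8.30 in control replicates 1 to 4. The megakaryocyte mean was also lower in control replicates 2 and 4 (8.26 and 8.34) than in 1 and 3 (8.53 and 8.51). The same held for the means of the neutrophil, macrophage and monocyte, B cell, and endothelial and stromal markers. It did not hold for those of the T cell, NK cell and plasma cell markers. The part of erythroid, dividing or other cells, or of the arrays themselves, in the values of these genes was not tested.

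**Figure D2:**
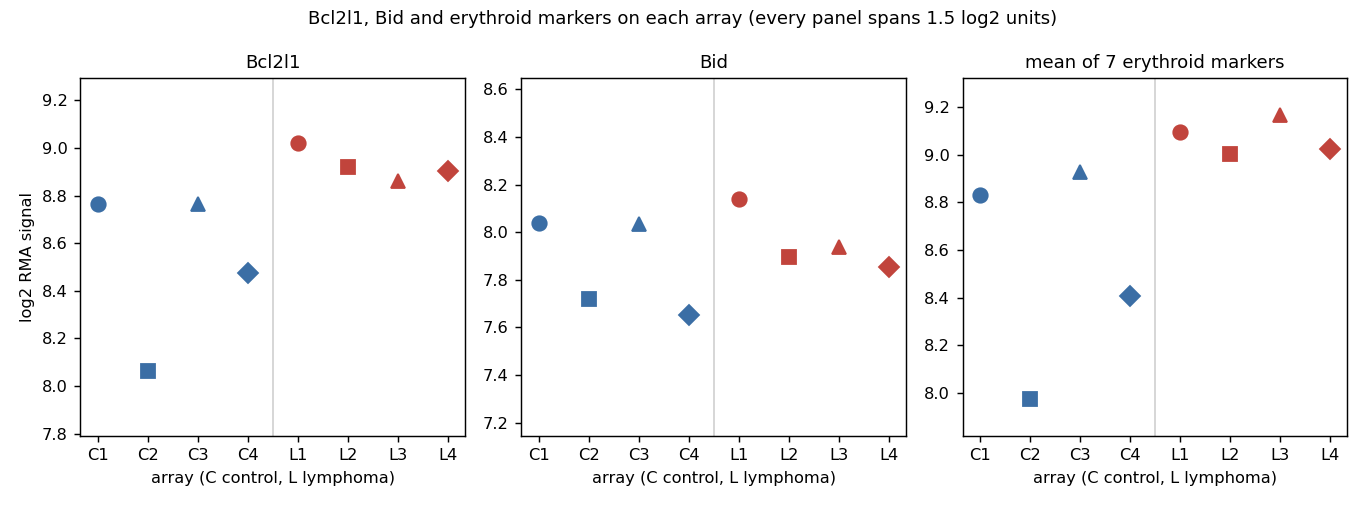
Log2 signal (y axis) of *Bcl2l1*, of *Bid* and of the mean of 7 erythroid markers on each array (x axis; C1 to C4 control, L1 to L4 lymphoma, 1 point per array). Control replicates 2 and 4 are low in all 3 panels, with *Bcl2l1* at 8.06 and 8.47 and the erythroid mean at 7.97 and 8.41.

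*Mcl1* and *Bcl2l2*, the remaining survival genes, did not pass the test. *Mcl1*, whose short-lived product is needed by lymphocytes and granulocytes, read 11.64, 11.52, 11.63 and 11.62 in control and 11.49, 11.43, 11.54 and 11.35 in lymphoma spleens. The highest lymphoma array lay just above the lowest control array. Its log2 fold change was -0.15 (95% interval -0.32 to 0.01, limma adjusted p = 0.138), was called lower after cyclic loess normalisation (-0.20, limma adjusted p = 0.0453) and with a variance prior that follows the level (adjusted p = 0.0342), and was called higher with equal hybridisation controls (0.31, limma adjusted p = 0.0267). *Bcl2l2*, which encodes BCL-W, known in mice for its role in making sperm, ranged from 8.18 to 8.31 in control and from 8.22 to 8.32 in lymphoma spleens. Its log2 fold change was 0.019 (95% interval -0.14 to 0.18, limma adjusted p = 0.859), and 0.48 and called higher with equal hybridisation controls (limma adjusted p = 0.000888).

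A shift of a whole array cancels in the difference between a pair of genes read on it, so 3 genes were set against *Bcl2* array by array. The level of one probe set against another has no meaning in itself, and only the change of the difference between groups is read. *Bcl2l11* minus *Bcl2* was -2.91, -3.05, -2.72 and -2.90 in control and -1.86, -1.60, -2.20 and -1.70 in lymphoma spleens, a change of 1.05. *Bcl2l1* minus *Bcl2* was -2.39, -3.08, -2.34 and -2.58 in control and -1.80, -1.64, -1.97 and -1.70 in lymphoma spleens, a change of 0.83. *Mcl1* minus *Bcl2* was 0.48, 0.38, 0.52 and 0.56 in control and 0.67, 0.87, 0.71 and 0.75 in lymphoma spleens, a change of 0.26. In each of these 3 pairs the groups did not overlap. For *Bcl2l11* and *Bcl2l1* this had to be so, since both genes and *Bcl2* were apart between groups in opposite directions, and it adds no evidence to their own values. For *Mcl1* it was not fixed in this way (exact two-sided permutation test over 70 labellings, p = 0.0286, the smallest that 4 against 4 samples allow). Adjustment over the 3 pairs left this p as it was, since all 3 pairs had this smallest p. For *Bcl2l11* and *Bcl2l1* that p was fixed in advance, so the adjustment made the test no stricter. *Mcl1* itself changed by -0.15 and *Bcl2* by -0.42. The separation thus rests on the larger change of *Bcl2* and adds no evidence that *Mcl1* changed. Over all 9 other genes, given without a test, the change relative to *Bcl2* was positive for 8 and the groups were apart for 7. The share of all clusters on this measure was not computed. With *Bcl2* at -0.42 and the median change of all clusters at -0.056, an unchanged gene also comes out positive. These counts therefore do not set the family apart. The change relative to *Bcl2* was 1.22 for *Bak1*, 0.62 for *Bad*, 0.51 for *Bid*, 0.44 for *Bcl2l2* and 0.20 for *Bik*, whose groups overlapped. *Bmf* changed by -0.020 relative to *Bcl2* and its groups overlapped, so this measure did not separate *Bmf* from *Bcl2*.

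**Figure D3:**
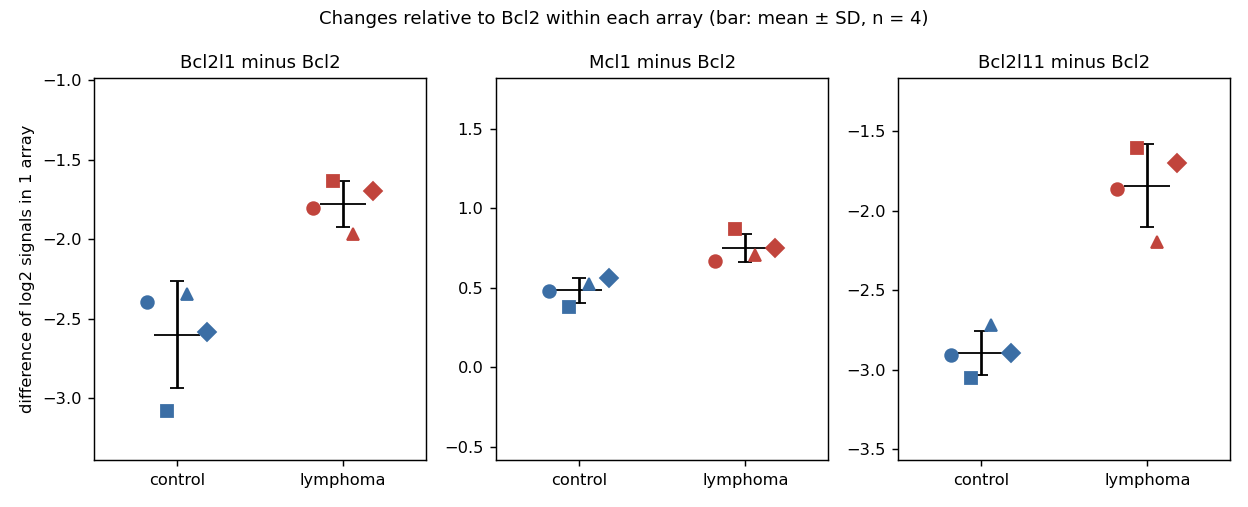
Difference of log2 signals between each of 3 genes and *Bcl2* on the same array (y axis) in the 4 control and 4 lymphoma spleens (x axis); points are arrays, bars the mean and SD (n = 4). The lymphoma arrays lie above the control arrays in all 3 panels, by 0.83, 0.26 and 1.05 on average from left to right.

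The promoters of the genes with the firmest changes, *Bak1* and *Bcl2l11*, and of the pair lower on the arrays as deposited, *Bcl2* and *Bmf*, are shown so that the DNA next to each start can be compared. Each is the 250 bases before the most upstream start listed in RefSeq (GRCm38.p6), written 5′ to 3′ on the gene's strand. Capitals mark matches to the motifs searched.
Bak1, chr17:27028628-27028877, minus strand: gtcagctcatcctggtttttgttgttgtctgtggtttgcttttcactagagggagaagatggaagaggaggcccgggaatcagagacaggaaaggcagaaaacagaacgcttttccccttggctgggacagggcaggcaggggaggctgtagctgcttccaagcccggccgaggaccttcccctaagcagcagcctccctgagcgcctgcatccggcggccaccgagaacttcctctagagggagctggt
Bcl2l11, chr2:128125788-128126037, plus strand: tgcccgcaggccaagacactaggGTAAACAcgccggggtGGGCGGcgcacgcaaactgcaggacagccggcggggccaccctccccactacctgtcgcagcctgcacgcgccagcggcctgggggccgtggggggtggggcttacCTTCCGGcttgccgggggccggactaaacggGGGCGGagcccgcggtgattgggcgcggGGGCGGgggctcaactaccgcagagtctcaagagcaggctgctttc
Bcl2, chr1:106714291-106714540, minus strand: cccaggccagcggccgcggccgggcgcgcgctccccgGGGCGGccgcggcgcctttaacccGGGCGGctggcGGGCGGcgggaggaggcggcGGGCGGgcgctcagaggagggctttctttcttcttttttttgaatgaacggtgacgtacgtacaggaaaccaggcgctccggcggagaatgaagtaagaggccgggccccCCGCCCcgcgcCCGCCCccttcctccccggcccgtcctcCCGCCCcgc
Bmf, chr2:118549687-118549936, minus strand: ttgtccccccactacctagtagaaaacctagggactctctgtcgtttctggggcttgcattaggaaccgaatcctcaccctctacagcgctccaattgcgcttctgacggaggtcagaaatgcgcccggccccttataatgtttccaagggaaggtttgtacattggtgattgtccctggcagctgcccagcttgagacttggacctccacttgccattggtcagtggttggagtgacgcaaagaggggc

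Of the 10 genes 9 had a promoter in the RefSeq table and *Bik* was not matched; 4 had several starts, *Bcl2l11*, *Bmf*, *Bcl2l1* and *Bad*, and the arrays do not tell which was used. Searched on both strands were the GC box GGGCGG, the E2F motifs TTTCCCGC and TTTGGCGC, the FOXO motif GTAAACA, the GAS motif TTCNNNGAA, the E-box CACGTG, the ETS motif CCGGAAG and an NF-kB motif, none of which overlapped another in the sequences shown. The *Bcl2* window, at 74.8% G and C, held 7 GC boxes, a motif found in 32.7% of all 32851 promoter windows of this length. In *Bcl2l11* there were 3 GC boxes, 1 FOXO motif 227 bases before the start (3.17% of all windows hold one) and 1 ETS motif 105 bases before it (6.91%). The windows of *Bak1* (58.4% G and C) and *Bmf* (54.0%) matched none of the motifs, nor did that of *Bcl2l1*. GC boxes stood also in *Bad* (3), *Bid* (3), *Bcl2l2* (1) and *Mcl1* (1), the last with an ETS motif as well. A match is a description of the letters and not of binding.

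Of 11 other measured genes of the BCL2 family 5 were higher, 1 was lower and 5 did not pass the test, and their median log2 fold change was 0.021. Of all clusters 18.2% were called higher and 17.2% lower. *Bcl2a1a*, *Bcl2a1b* and *Bcl2a1d*, near-identical copies of the survival gene A1 that is known from neutrophils and activated lymphocytes, rose together. *Bcl2a1d* went from 9.06 to 9.20 in control to 10.05 to 10.35 in lymphoma spleens, 1.07 higher on the log2 scale (standard error 0.08, limma adjusted p = 5.34e-07), and *Bcl2a1a* and *Bcl2a1b* rose by 0.78 and 0.75. Since the copies are so alike, probes of one may read another, and the split between them is uncertain. *Bcl2l14*, whose product BCL-G can promote cell death when overexpressed, rose by 0.99 (limma adjusted p = 8.56e-06), and *Bcl2l13*, a mitochondrial relative, by 0.42 (limma adjusted p = 0.00221).

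*Hrk*, a BH3-only gene known from neurons, was at 8.02 to 8.39 in control and 7.82 to 7.92 in lymphoma spleens, or -0.30 as log2 fold change (limma adjusted p = 0.0178), and 0.16 with equal hybridisation controls. Leaving out control replicate 4 or lymphoma replicate 2 ended this call (limma adjusted p = 0.0513 and 0.0501). *Bbc3*, which encodes the p53 target PUMA, had a log2 fold change of -0.08 (95% interval -0.29 to 0.13, limma adjusted p = 0.553), but was called higher with equal hybridisation controls (0.38, limma adjusted p = 0.00704). *Bok*, a pore former, had -0.23 (limma adjusted p = 0.103), and was called lower when lymphoma replicate 4 was left out (limma adjusted p = 0.0292). *Bcl2l10*, *Bcl2l12* and *Bcl2l15* had log2 fold changes of -0.070, -0.018 and 0.021, none called, and *Bcl2l10* lay at 4.63 to 5.01, about the background median. *Bax* was not analysed here.

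**Figure D4:**
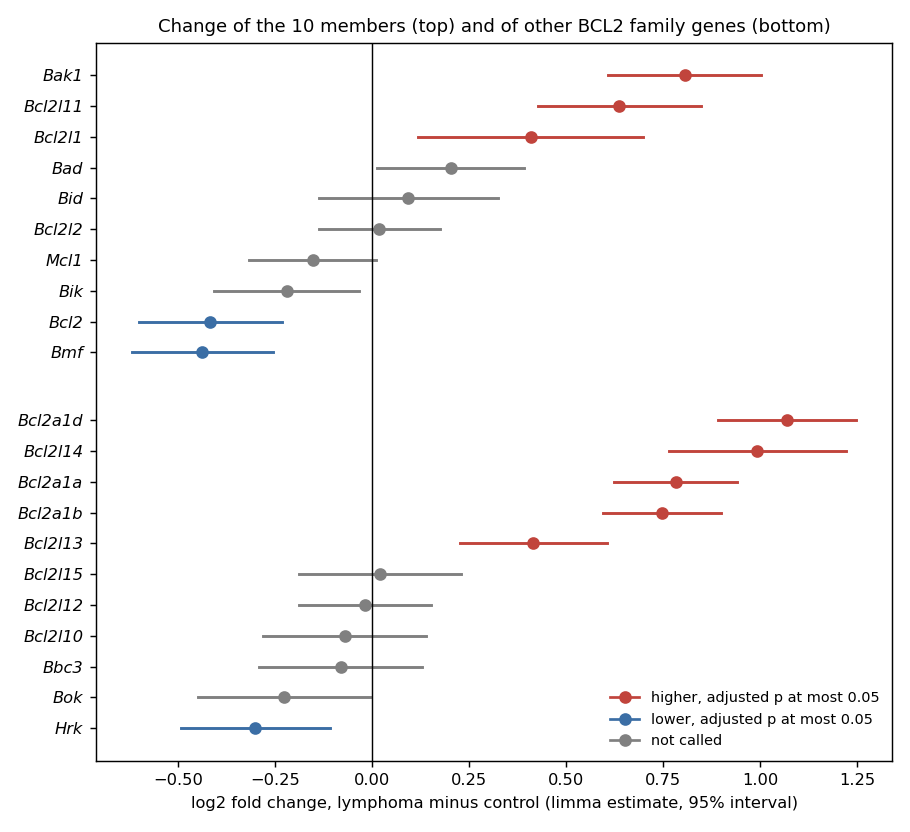
Log2 fold change between lymphoma and control spleens (x axis, limma estimate with its 95% interval, n = 4 each) of the 10 genes (top) and of 11 other genes of the family (bottom), coloured by call at an adjusted p of at most 0.05. *Bak1* at 0.81 and *Bcl2a1d* at 1.07 lead their blocks, and *Bmf*, *Bcl2* and *Hrk* lie lowest at -0.44, -0.42 and -0.30 (0.024, 0.044 and 0.16 with equal hybridisation controls).

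Downstream of BAK, genes of the apoptosome rose in part. Of 10 measured genes of the apoptosome and caspases, 5 were higher and 0 lower (median log2 fold change 0.19), beside 18.2% and 17.2% of all clusters. *Cycs*, which encodes cytochrome c and also serves respiration, rose by 0.70, *Apaf1*, the scaffold on which caspase 9 is activated, by 0.68, and *Htra2*, a mitochondrial protease, by 0.34 (limma adjusted p = 1.54e-05, 6.09e-05 and 0.00599). *Casp9* itself had a log2 fold change of 0.013 (limma adjusted p = 0.910). *Casp6*, an effector caspase, and *Aifm1*, a mitochondrial oxidoreductase, both named after their values were seen, rose by 0.25 and 0.34 (limma adjusted p = 0.0437 and 0.0243).

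Of 7 inhibitor of apoptosis genes, 1 was higher and 3 were lower (median log2 fold change -0.20), beside 18.2% and 17.2% of all clusters. *Birc5*, which encodes survivin and is needed for cell division, rose by 1.03 (limma adjusted p = 9.24e-07). *Birc6* and *Birc3*, which encode ubiquitin ligases that curb caspases and shape NF-kB signalling, had -0.59 and -0.47 (limma adjusted p = 0.000147 and 0.000187), and -0.13 and -0.012, neither called, with equal hybridisation controls. The other gene called lower, named after its value was seen, was *Xiap*, which encodes a direct caspase inhibitor, at -0.31 (limma adjusted p = 0.0195), and not called lower with equal hybridisation controls.

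Of 9 genes of the death receptor pathway, which reaches the mitochondrion through BID, 4 were higher and 1 was lower, with a median of 0.24. The ligand gene *Fasl* rose by 1.12, the receptor gene *Tnfrsf1a* by 1.07 and the ligand gene *Tnfsf10*, which encodes TRAIL, by 0.83 (limma adjusted p = 4.92e-07, 5.82e-06 and 1.79e-05). *Fasl* went from 6.78 to 6.98 in control to 7.83 to 8.11 in lymphoma spleens. Also called, and named after their values were seen, were *Fas*, the receptor of the *Fasl* product, which rose by 0.79 (limma adjusted p = 7.57e-05), and *Tnfrsf10b*, which encodes the TRAIL receptor, at -0.48 (limma adjusted p = 0.00129) and not called lower with equal hybridisation controls. In all, 15 of 37 measured genes of the 4 lists were higher and 5 lower, beside 18.2% and 17.2% of all clusters. With equal hybridisation controls 29 were higher and 0 lower, beside 16127 and 389 of 22206 clusters.

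The genes most like *Bak1* over the 8 arrays, by the root mean square difference of log2 values centred on each gene's mean, were *St6galnac5*, *H2ac22* and *Ptpn1*, at 0.067, 0.068 and 0.073. Those most like *Bmf* were *Ppm1e*, *Ccdc186* and *Recql*, at 0.043, 0.050 and 0.051.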

How the data were processed

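Spleen RNA was read on Clariom S HT arrays (Affymetrix), 4 per group and 1 per sample. For the extraction the labels name Trizol and the methods an RNeasy kit. The deposited values are log2 signals that the authors made with the robust multichip average, which subtracts background, quantile-normalises the arrays and summarises each cluster's probes. R 3.6.3 is named in the submitters' processing notes. Transcript clusters make up 22206 of 29129 rows, 19572 of them with 1 gene symbol in the platform annotation, 0 with several and 2634 with none. The platform annotation can be old. No genome build is given in the sources used here, nor is a batch, so that no batch could be tested.

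Samples were grouped by title. Lymphoma and control spleens were compared with limma 3.58.1 in R 4.3.3 (lmFit, eBayes), with Benjamini-Hochberg adjustment over all clusters. Each gene was read from its cluster with the highest mean. Differences within arrays were tested exactly in SciPy 1.17.1. The analysis was tested on simulated arrays. The members and lists were chosen with earlier results of these data known. Text names all 10 genes, all other measured family genes and the 3 called genes with the largest change in each other pathway list. It also names the 3 genes most like the largest called rise and fall. Chosen after their values were seen were *Rhag*, *Casp9*, *Casp6*, *Aifm1*, *Xiap*, *Fas*, *Tnfrsf10b* and the Y-linked genes. Alternatives were cyclic loess, the replicate number as a block, equal medians, equal hybridisation controls, other variance moderation, array weights, filters on dim clusters, a background floor, each array left out, a stricter threshold and the mean of clusters. The number of arrays limits the precision. Some list members were not analysed here.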

Additional observations from a re-analysis of the deposited data

Results flagged for a closer look

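In 3 of 60 groups of 4 arrays, 1 array stood further from the others than Dixon's 95% limit allows; chance marks about 1 in 20 groups. *Mcl1* was at 11.52 in control replicate 2, against 11.62 to 11.64 in the other control spleens. *Bcl2l14* was at 6.55 in control replicate 2, against 6.88 to 6.92. *Birc5* was at 9.05 in control replicate 3, against 8.79 to 8.82. Control replicate 2 is also the array with the lowest *Bcl2l1* (8.06) and the lowest mean of erythroid markers (7.97).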

How the results depend on the processing

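*Bak1* and *Bcl2l11* kept direction and call under all 20 alternatives. *Bcl2* and *Bmf* did so under all but equal hybridisation controls, and *Bcl2l1* lost its call in 7. Equal hybridisation controls, chosen after the data were seen, gave 7 of the 10 genes as higher and 0 as lower, 16127 clusters as higher and 389 as lower, and 29 and 0 genes of the death pathway lists. *Bcl2*, *Mcl1* and *Bmf* then had 0.044, 0.31 and 0.024, and *Bbc3*, *Hrk*, *Bcl2l10* and *Bcl2l12* had 0.38, 0.16, 0.39 and 0.44. This follows from adding the same amount to every difference; why the controls differ was not tested. With a variance prior that follows the level, 4 of the 10 genes were lower, *Bik* and *Mcl1* in addition. At an adjusted p of at most 0.01, 2166 clusters and 3 genes of the death pathway lists were lower. Leaving out 1 array, the change of *Bcl2l1* minus *Bcl2* was 0.67 to 0.91, of *Mcl1* minus *Bcl2* 0.22 to 0.29 and of *Bcl2l11* minus *Bcl2* 0.97 to 1.17. All had p = 0.0571 in the exact two-sided permutation test, the smallest it allows for 3 against 4 samples. Since the groups of each pair did not overlap with all arrays in, this p was fixed in advance and adds no evidence. With the replicate number as a block, 3 of the 10 genes were higher and 2 lower, the same genes, and 4039 clusters were higher and 3983 lower. Deviations from the group means of samples that share a number correlated by 0.12, 0.04, 0.04 and 0.17 across clusters. The lymphoma replicate that correlated best with control replicates 1, 2, 3 and 4 was 1, 2, 1 and 4. The correlations are weak, and whether the numbers pair the samples is not settled.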
